A study of Mus musculus with 12 samples.

Results

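Chemokines are small secreted proteins that attract leukocytes, and the 38 genes described here encode 28 chemokine ligands and 10 chemokine receptors as read on arrays of tumours from 3 lines of mouse lung adenocarcinoma. The members were named by symbol, not by their values: each is represented by the probe set that carries only its symbol and has the highest mean over the 12 arrays. All 38 were found among the 18193 genes tested. Of them, 17 have more than 1 such probe set. The 38 members together have 62, and the other probe sets are given where they bear on a result.

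RNA came from tumours of the lines 344SQ, 393LN and 393P, with 4 1-colour Affymetrix arrays per line. The lines derive from mice with the genotype p53R172H∆g/+ K-rasLA1/+, which carry a mutant p53 allele and a latent oncogenic K-ras allele. Every group shares this origin. 393P was grown out of a primary lung tumour and 393LN out of a lymph node of the mediastinum in that mouse (#393), whereas 344SQ came from a subcutaneous site in another mouse (#344). The labels call 344SQ highly metastatic, 393LN intermediately metastatic and 393P non-metastatic. The lines are mass populations passaged in RPMI 1640 medium with 10% serum, not single clones. Each was injected into syngeneic mice, and the resulting tumours were dissected and frozen. Each line stands for 1 site in 1 mouse, so metastatic class, line and, for 344SQ, founder mouse cannot be told apart. The labels do not say whether the arrays of a line came from separate animals, and p-values measure only the spread between these samples.

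Ligands of the CXC and CC classes, fractalkine (Cx3cl1) and lymphotactin (Xcl1) act through receptors coupled to inhibitory G proteins, and a leukocyte follows the ligands whose receptors it carries. CXC ligands with a Glu-Leu-Arg motif draw neutrophils through Cxcr2, the interferon-inducible ligands draw activated T cells and natural killer cells through Cxcr3, and many CC ligands draw monocytes, eosinophils or lymphocytes. In a tumour both the carcinoma cells and the host's leukocytes, fibroblasts and vessels can make ligands, while most receptors sit on leukocytes. In such whole-tumour RNA, fewer cells of a type and less RNA per cell cannot be told apart.

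Levels are given as log2(intensity + 16), on which the floor is 4.09, a difference of 1 is a doubling, and differences of dim genes are understated. Probe sets differ in their response, so levels of different genes were not compared. Array medians lay between 7.19 and 7.29, the lowest correlation between any pair of arrays was 0.954, and 0 pairs were identical. Actin signal at the 3' end over that at the 5' end, which rises as RNA degrades, stood at 1.47 for 393P replicate 1 and 1.04 to 1.19 on the other 11 arrays. All lines expressed the carcinoma keratin genes Krt8 and Krt18. Of the lung epithelial markers Nkx2-1 and Scgb1a1 were near the floor on all 12 arrays, and Sftpc read from 6.28 to 7.36. Epcam, an epithelial adhesion gene, was lower in 344SQ (log2 change -3.82 against 393P and -3.64 against 393LN).

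Few chemokine genes passed the test for a difference between the lines. In 344SQ against 393P, the ligand genes Cxcl5, Cxcl16 and Cxcl14 fell and the receptor gene Cxcr3 and the ligand gene Xcl1 rose. That is 5 of 38 members, or 13.2%, at a limma adjusted p under 0.05, where 10.5% of all genes tested passed. The 2 that rose and 3 that fell stand beside 4.86% and 5.62% of all genes. In 344SQ against 393LN, Cxcl16, Cxcl14 and Cx3cl1 fell and Xcl1 rose, 4 members or 10.5%, where 10.9% of all genes passed (3.99% higher, 6.92% lower). In 393LN against 393P, Ccl17 fell and no member rose, 1 of 38 or 2.63%, where 2.45% of all genes passed (1.75% higher, 0.698% lower). In each comparison the members' share thus lay close to that of all genes. The comparisons share arrays in pairs, so their calls are not independent of each other. In all, 7 members passed in some comparison and 31 in none.

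The members' changes leaned towards lower values in 344SQ against 393P. The median change of the 38 members was -0.22 in 344SQ against 393P, with 10 above 0 and 28 below, beside a median of -0.00 over all genes. It was -0.06 in 344SQ against 393LN (17 above 0, 21 below) and -0.11 in 393LN against 393P (13 above, 25 below), beside -0.02 and 0.01 over all genes. By line mean, 20 members were lowest in 344SQ, 12 in 393LN and 6 in 393P, and 13 were ordered with 393P highest, then 393LN, then 344SQ. The 4 values of 344SQ and of 393P did not overlap for 8 members (21.1%, where 16.7% of all genes did not overlap). For 344SQ against 393LN this held for 3 members (7.89%, background 17.4%), and for 393LN against 393P for 4 (10.5%, background 10.3%). At an unadjusted p under 0.05 by limma, 12 members passed in 344SQ against 393P (31.6%, where 23.6% of all genes did), 7 in 344SQ against 393LN (18.4%, background 25.7%) and 6 in 393LN against 393P (15.8%, background 15.7%).

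**Figure D1:**
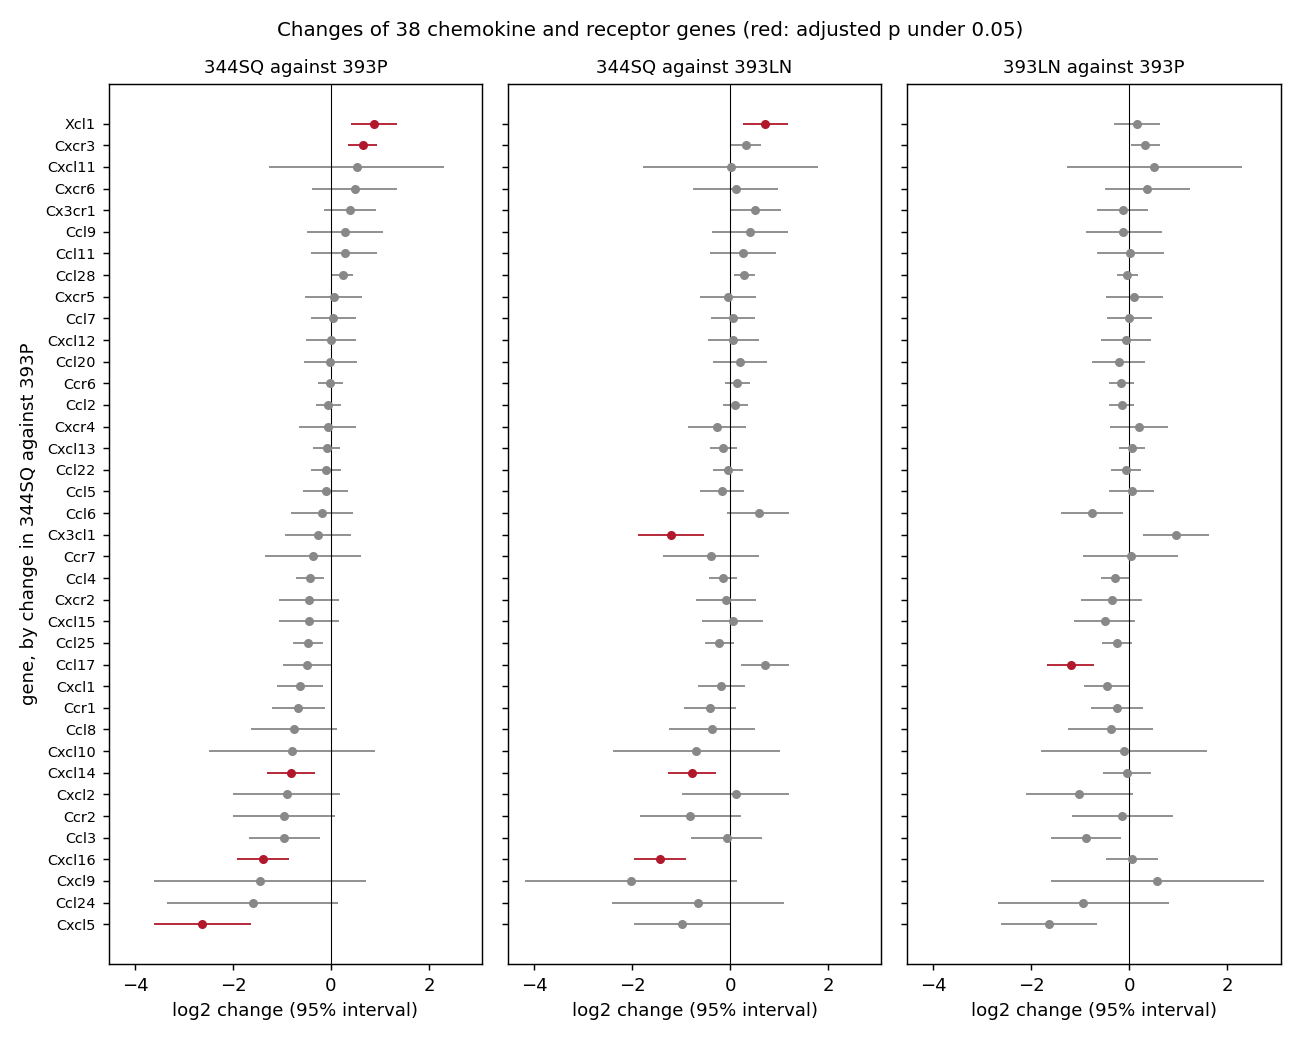
Log2 change of each of the 38 members in the 3 comparisons, on the log2(intensity + 16) scale, with 95% intervals from the limma fit and the genes sorted by their change in 344SQ against 393P. Red points had an adjusted p under 0.05. Most points lie near 0, Cxcl9, Cxcl10, Cxcl11 and Ccl24 have the widest intervals, and Cxcl5 has the largest change among those that passed (-2.63 in 344SQ against 393P).

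Spread within a line was wider for these genes than for most. The median SD over 4 arrays was 0.47 for the members in 344SQ, 0.46 in 393LN and 0.39 in 393P, against 0.20, 0.21 and 0.21 for all genes. In 344SQ, 5 members had an SD over 1 (Cxcl9, Cxcl10, Cxcl11, Cxcl2 and Ccr2), where 1.04% of all genes did. In 393LN it was Ccl24 alone (0.885% of all genes), and in 393P Ccl24 and Cxcl11 (0.429%).

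The neutrophil-attracting ligand genes Cxcl5, Cxcl1, Cxcl2 and Cxcl15 all had lower means in both 344SQ and 393LN than in 393P. Their median change was -0.77 in 344SQ against 393P and -0.76 in 393LN against 393P. In 344SQ against 393LN it was -0.06, with 2 changes above 0 and 2 below. On the brightest probe set of each gene, only Cxcl5 of the 4 passed, in 344SQ against 393P. Cxcl5 encodes a ligand of Cxcr2 that epithelial cells make in inflamed lung. Its level was 8.97, 10.42, 8.39 and 9.51 on the 4 344SQ arrays, 10.56, 10.86, 10.47 and 9.32 on the 393LN arrays and 11.17, 12.30, 11.73 and 12.59 on the 393P arrays. Every 393P array lay above every array of the other lines, while 344SQ and 393LN overlapped. Cxcl5 was 6.18-fold lower in 344SQ than in 393P (log2 change -2.63, SE 0.45, 95% interval -3.61 to -1.64, adjusted p = 0.00316, n = 4 per line). Against 393LN the change was -0.98 (adjusted p = 0.197), and in 393LN against 393P it was -1.65 (adjusted p = 0.0816). The call against 393P held in each fit without 1 array, with changes of -2.99 to -2.32.

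Cxcl1, which encodes the keratinocyte-derived chemokine KC, depended on the probe set. The brightest one, of an Affymetrix type whose probes can match other transcripts, read 10.21, 10.60, 9.88 and 10.72 in 344SQ, 10.56, 10.46, 10.75 and 10.36 in 393LN and 11.53, 10.60, 11.06 and 10.76 in 393P. Its lines overlapped, and its change in 344SQ against 393P was -0.63 (SE 0.22, adjusted p = 0.0922). The dimmest of its 3 probe sets read 7.85, 9.19, 7.64 and 10.10 in 344SQ, 10.92, 10.39, 9.88 and 9.19 in 393LN and 11.23, 10.89, 10.91 and 10.93 in 393P. Here 344SQ lay wholly below 393P, by 2.30 on the log2 scale (change -2.30, SE 0.50, adjusted p = 0.0147 over 34945 probe sets). The remaining probe set had a change of -1.57 (SE 0.35, adjusted p = 0.0172). Leaving out 344SQ replicate 1 or 3 ended its call (adjusted p = 0.0517 to 0.0545). Against 393LN the 3 probe sets, in the same order, had changes of -0.18, -1.40 and -0.79, and none passed (adjusted p = 0.113 for the dimmest). With the mean of all probe sets of a gene, Cxcl1 passed in 344SQ against 393P.

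Cxcl2, which encodes macrophage inflammatory protein 2, had a wide range in 344SQ. Its level was 8.04, 10.48, 9.23 and 10.60 in 344SQ, 9.65, 10.21, 9.34 and 8.70 in 393LN and 10.94, 10.60, 10.00 and 10.43 in 393P. The 344SQ arrays split, with replicates 2 and 4 inside the 393P range and replicates 1 and 3 below it, and no comparison passed (change -0.90 against 393P, adjusted p = 0.318). The lung-specific ligand gene Cxcl15 was dim, with line means of 6.47 for 344SQ, 6.42 for 393LN and 6.92 for 393P. Cxcr2, the receptor of these ligands on neutrophils, was dim as well, with means of 5.93, 6.01 and 6.37 and a change of -0.44 against 393P (adjusted p = 0.395).

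In RefSeq's gene order for GRCm38.p6, Cxcl5, Ppbp, Pf4, Cxcl3, Cxcl15, Cxcl1 and Cxcl2 stand next to each other on chromosome 5 with no other coding gene between. Ppbp, which encodes the platelet and neutrophil-attracting precursor of NAP-2, belongs to the list of other chemokines and read 7.36, 9.51, 9.47 and 9.32 in 344SQ, 10.91, 10.07, 9.22 and 9.79 in 393LN and 10.62, 11.22, 10.90 and 11.12 in 393P. It lay wholly below 393P in 344SQ and fell there by 2.05 (SE 0.46, adjusted p = 0.0139). Cxcl3, a further Cxcr2 ligand gene named after its values were seen, had a change of -1.19 (adjusted p = 0.104). The platelet factor gene Pf4, also named after its values were seen, went the other way, with a change of 0.50 (adjusted p = 0.334). The 7 neighbours thus did not move as a block in 344SQ against 393P, where 6 had changes below 0 and 1 above, and 2 passed. In 393LN against 393P all 7 had changes below 0, from -1.65 for Cxcl5 to -0.30 for Pf4, and none passed. In 344SQ against 393LN the changes lay on both sides of 0, from -1.08 for Ppbp to 0.80 for Pf4, and none passed. Cxcl3 had -1.15 and -0.04 in these 2 comparisons.

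**Figure D2:**
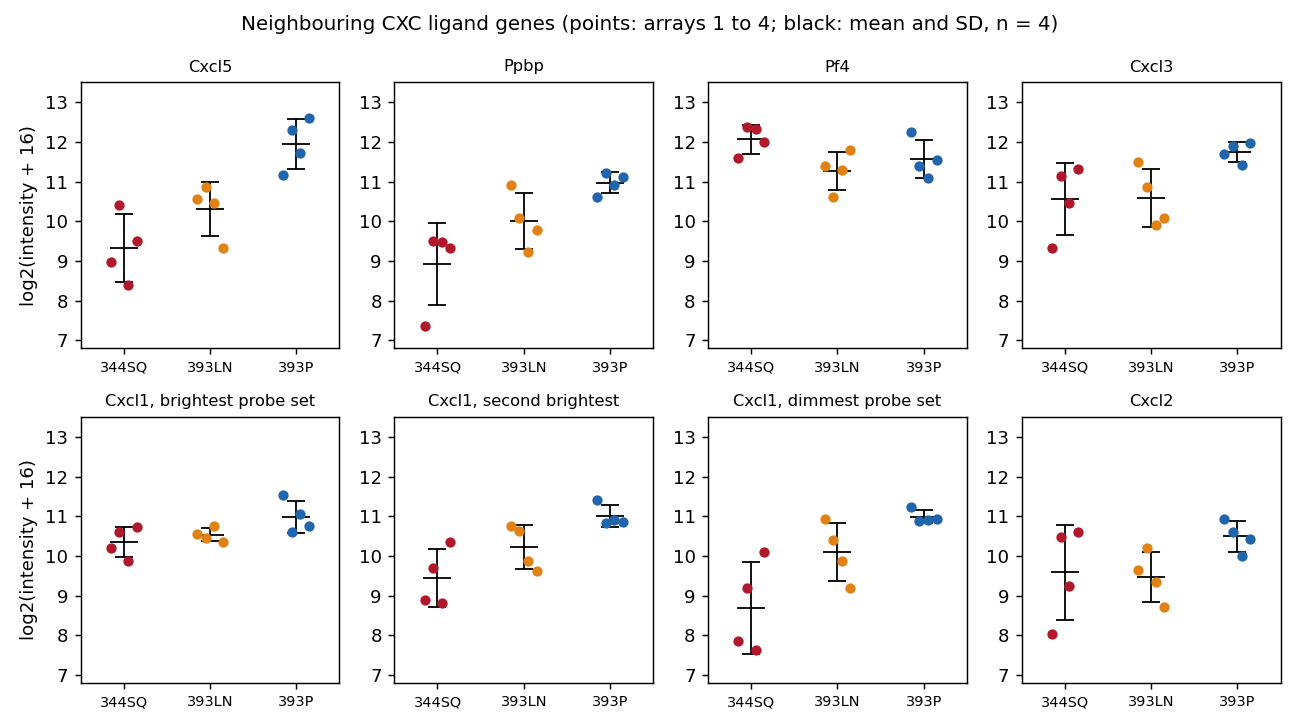
Level of genes of the chromosome 5 run of neutrophil-attracting ligands on each of the 12 arrays, as log2(intensity + 16) on the vertical axis with the 3 lines along the horizontal axis, coloured points for arrays and black marks for the line mean and SD (n = 4). For Cxcl5 every 393P array (11.17 to 12.59) sits above every array of 344SQ (8.39 to 10.42) and 393LN (9.32 to 10.86).

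Neutrophil markers were read beside these ligands. The mean level of 8 measured markers was 7.74, 8.44, 7.79 and 9.38 on the 344SQ arrays, 8.51 to 9.19 in 393LN and 8.73 to 9.44 in 393P. The 344SQ arrays with the lowest marker means, replicates 1 and 3, were also the 2 lowest of that line for Cxcl5, Cxcl2 and each probe set of Cxcl1. Of the 8, Padi4, a deiminase gene of neutrophils, fell in 344SQ against both lines (change -3.36 in each), and the other 7 did not pass. Padi4 read 5.40, 6.32, 6.35 and 10.04 on the 344SQ arrays, 9.82 to 10.98 in 393LN and 10.26 to 10.58 in 393P. Replicate 4 thus lay inside the 393LN range, and without it the change was -4.36. With only the arrays of the compared lines, the call against 393LN was lost (adjusted p = 0.0502). The calprotectin genes S100a8 and S100a9 had changes of -1.24 and -1.53 against 393P, while the granule protein genes Mpo, Elane, Camp and Ngp had changes of 0.02, 0.10, -0.05 and 0.03. The part of neutrophil number in the ligand values was not tested.

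The promoters of Cxcl1 and Cxcl2 are shown because these adjacent genes share a site for NF-kB, the factor through which inflammatory signals switch on neutrophil ligands. RefSeq's promoter table (GRCm38.p6, 250 bases before to 50 after each start) holds 29 promoters of 27 of the members, and only the bases before the start were searched. It has no promoter of Cxcl5, Cxcl11, Cxcl16, Ccl2, Ccl4, Ccl5, Ccl7, Ccl11, Ccl24, Cxcr5 or Ccr7, so these were not searched for any motif. The NF-kB motif, GGGA and TTCC with any 2 bases between, was looked for on both strands, and its matches are in capitals.
Cxcl1 (chr5:90891125-90891244, plus strand): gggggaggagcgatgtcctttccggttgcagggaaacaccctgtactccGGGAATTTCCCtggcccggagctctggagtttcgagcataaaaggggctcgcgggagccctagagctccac
Cxcl2 (chr5:90903779-90903898, plus strand): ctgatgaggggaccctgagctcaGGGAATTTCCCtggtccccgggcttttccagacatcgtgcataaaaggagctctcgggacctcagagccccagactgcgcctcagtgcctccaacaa
Both hold the run GGGAATTTCCC, in which the motif matches on either strand with overlap, 61 bases before the start in Cxcl1 and 87 bases before it in Cxcl2. A match was found in 3 of the 29 member promoters (Cxcl1, Cxcl2 and Cxcl10) and in 1.21% of the 32851 promoters of the table. A match describes these letters and does not show that the factor is bound. Of 23 measured genes of the NF-kB and inflammatory list, 3 fell in 344SQ against 393P and none rose, where 5.62% of all genes fell and 4.86% rose. Il1b, which encodes interleukin-1 beta, fell by 1.34 (adjusted p = 0.00837), Csf2, which encodes the myeloid growth factor GM-CSF, by 1.08 (adjusted p = 0.0236) and Nfkbiz, an NF-kB cofactor gene, by 0.79 (adjusted p = 0.0459). Of these 3 calls, that of Il1b alone held in every fit without 1 array. The list's median change was -0.17, beside -0.00 over all genes.

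The interferon-inducible ligand genes Cxcl9, Cxcl10 and Cxcl11 differed more between the arrays of 344SQ than between line means, their changes being smaller than the SD in 344SQ. Cxcl9 read 11.56, 10.56, 8.73 and 5.63 in 344SQ, 11.18, 11.95, 10.21 and 11.23 in 393LN and 9.38, 10.87, 10.96 and 11.07 in 393P. Cxcl10 read 11.77, 10.56, 9.09 and 6.92 in 344SQ, 10.56, 10.63, 9.51 and 10.40 in 393LN and 9.64, 10.60, 10.72 and 10.57 in 393P. Cxcl11 read 9.37, 8.08, 6.68 and 5.36 in 344SQ, 7.51, 8.13, 6.21 and 7.59 in 393LN and 5.03, 7.89, 7.71 and 6.75 in 393P. All 3 genes were highest on 344SQ replicate 1 and lowest on 344SQ replicate 4 among that line's arrays, and in 393P all were lowest on replicate 1. The other probe set of Cxcl9 had the same order within 344SQ, at 9.84, 8.91, 7.97 and 7.59. The SD in 344SQ was 2.61 for Cxcl9, 2.08 for Cxcl10 and 1.73 for Cxcl11.

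No difference between lines passed for these ligands, and the intervals were wide. The change of Cxcl9 was -1.45 against 393P (95% interval -3.62 to 0.71, adjusted p = 0.438) and -2.03 against 393LN (-4.19 to 0.14, adjusted p = 0.227), the largest change of any member that did not pass. Cxcl10 had changes of -0.80 and -0.69 (adjusted p = 0.616 and 0.639) and Cxcl11 of 0.53 and 0.01 (adjusted p = 0.775 and 0.997).

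The same arrays stood out in genes of interferon signalling. The mean of 14 measured genes of that list was 10.48, 9.68, 9.68 and 8.93 on the 344SQ arrays, 10.24, 10.37, 9.89 and 10.19 in 393LN and 9.53, 10.35, 10.22 and 10.03 in 393P. Its highest and lowest 344SQ arrays, replicates 1 and 4, were those of the ligands, and replicate 1 was the lowest of 393P here too. Ifng, which encodes interferon gamma, is on this list, was named after its values were seen and read 6.63 on 344SQ replicate 1 and 5.07 to 5.24 on the other 344SQ arrays. The T cell marker mean was 7.62, 6.77, 7.25 and 6.24 on the 344SQ arrays and the NK cell marker mean 8.12, 7.32, 7.16 and 6.94. Both were highest on replicate 1 and lowest on replicate 4, and their part in the ligand levels was not tested. Between lines, 2 of the 14 genes rose in 344SQ against 393P. They encode the receptor chains Ifngr2 (0.44, adjusted p = 0.0461) and Ifnar1 (0.31, adjusted p = 0.0416), and neither call held in most fits without 1 array (9 and 11 of 12 fits lost it). None passed against 393LN, where the list's median change was -0.45, beside -0.24 against 393P.

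**Figure D3:**
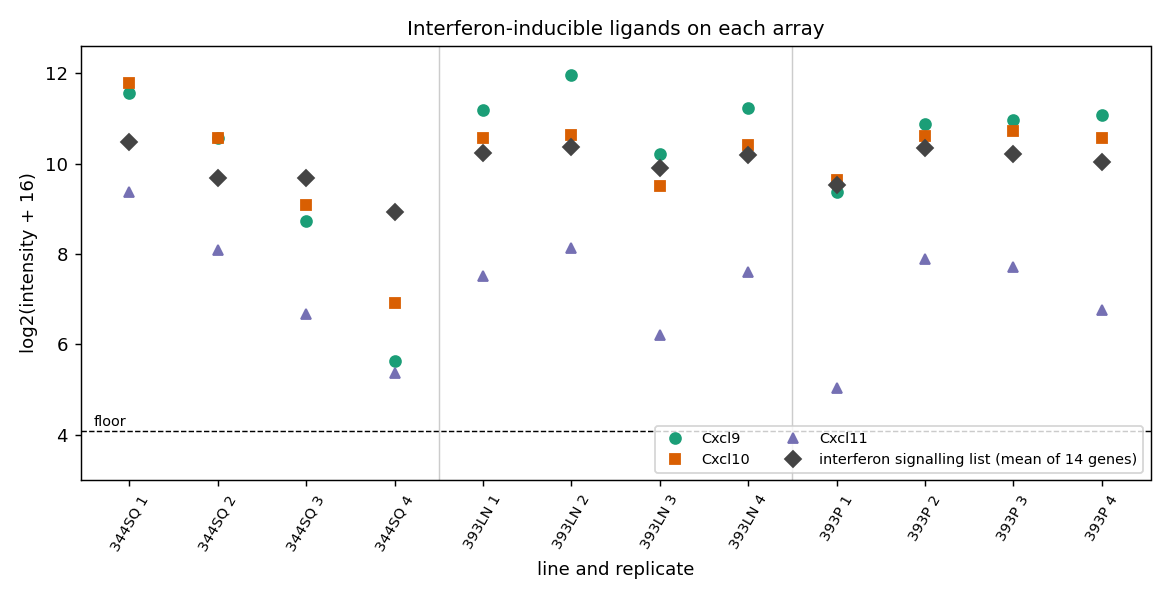
Level of Cxcl9, Cxcl10 and Cxcl11 and the mean of 14 interferon signalling genes on each array, as log2(intensity + 16), with the line and replicate along the horizontal axis, grey lines between the lines and a dashed line at the floor of 4.09. Within 344SQ the ligands run from 11.56, 11.77 and 9.37 on replicate 1 to 5.63, 6.92 and 5.36 on replicate 4.

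Cxcl9 and Cxcl10 lie close together on chromosome 5, with 1 coding gene between them, and their promoters are shown because the genes varied side by side over the arrays. Capitals mark matches, on either strand, to the interferon response core (GAAA, any 2 bases, GAAA), the same NF-kB motif and the AP-1 motif TGANTCA.
Cxcl10 (chr5:92348890-92349139, minus strand): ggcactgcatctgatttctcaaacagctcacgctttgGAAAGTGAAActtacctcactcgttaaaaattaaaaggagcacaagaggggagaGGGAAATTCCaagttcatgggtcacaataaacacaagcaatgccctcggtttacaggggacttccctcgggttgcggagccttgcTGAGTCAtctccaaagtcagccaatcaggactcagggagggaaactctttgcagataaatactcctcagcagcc
Cxcl9 (chr5:92328080-92328329, minus strand): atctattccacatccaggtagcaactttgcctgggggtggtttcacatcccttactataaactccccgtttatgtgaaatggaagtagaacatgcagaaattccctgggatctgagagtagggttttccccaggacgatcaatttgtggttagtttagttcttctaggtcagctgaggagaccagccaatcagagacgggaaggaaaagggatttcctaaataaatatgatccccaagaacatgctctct
Cxcl10 holds 1 match to each, 204 bases before the start for the interferon core, 150 for NF-kB and 68 for AP-1. The Cxcl9 window holds none of these letters. The interferon core was found in 2 of 29 member promoters (Cxcl10 and Cxcl14) and 2.98% of all, the AP-1 motif in 2 (Ccl9 and Cxcl10) and 6.75%, and the STAT motif TTCNNNGAA in 3 (Ccl17, Ccr6 and Cxcl14) and 7.02%. Cxcl11 was not among the promoters searched.

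Cxcr3, the receptor of these ligands on activated T and natural killer cells, rose in 344SQ. It read 9.67, 9.82, 9.69 and 9.23 in 344SQ, 9.43, 9.16, 9.17 and 9.35 in 393LN and 9.09, 9.08, 8.85 and 8.77 in 393P. The 344SQ and 393LN arrays all lay above those of 393P, while 344SQ and 393LN overlapped. Cxcr3 was 1.57-fold higher in 344SQ than in 393P (log2 change 0.65, SE 0.14, adjusted p = 0.0107), a call that held in each fit without 1 array. The changes were 0.32 against 393LN (adjusted p = 0.165) and 0.33 in 393LN against 393P (adjusted p = 0.27). Of 7 measured T cell markers Cd2 rose in 344SQ against 393P (0.94, adjusted p = 0.0162, lost without 344SQ replicate 4 and 393P replicate 1 together). Cd2 was dim, with means of 6.17 in 344SQ and 5.23 in 393P. No other marker of the list passed, and 3 of the 7 changes were above 0 and 4 below (median -0.07). The list's mean ranged from 6.24 to 7.62 in 344SQ, 6.91 to 7.52 in 393LN and 6.52 to 7.16 in 393P. The part of T cell number in the Cxcr3 values was not tested.

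Cxcl16 fell in 344SQ against both other lines. It encodes a ligand that is made as a transmembrane protein, can be shed from the surface and binds Cxcr6 on T cells and NKT cells. Its level was 9.98, 9.46, 9.30 and 10.09 in 344SQ, 11.35, 11.74, 10.62 and 10.83 in 393LN and 11.14, 11.28, 11.03 and 10.89 in 393P. All 4 344SQ arrays lay below all 8 arrays of the other lines, which overlapped each other. Cxcl16 was 2.60-fold lower than in 393P (log2 change -1.38, SE 0.24, adjusted p = 0.00366) and 2.69-fold lower than in 393LN (-1.43, SE 0.24, adjusted p = 0.00328), and both calls held in each fit without 1 array. Its other probe set fell as well, by 1.02 (adjusted p = 0.0157) and 1.20 (adjusted p = 0.00755). The change in 393LN against 393P was 0.05 (adjusted p = 0.959). Cxcr6 had means of 7.71 for 344SQ, 7.60 for 393LN and 7.23 for 393P, and no comparison passed (0.49 against 393P, adjusted p = 0.533).

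Cx3cl1 was highest in 393LN. It encodes fractalkine, a membrane-anchored ligand for monocytes, NK cells and T cells with Cx3cr1. It read 10.54, 9.57, 9.80 and 9.28 in 344SQ, 11.56, 11.17, 10.77 and 10.54 in 393LN and 9.39, 10.44, 10.44 and 9.96 in 393P. The 393LN arrays lay above those of 393P, and above those of 344SQ but for a tie at 10.54. In 344SQ against 393LN Cx3cl1 was 2.32-fold lower (log2 change -1.21, SE 0.31, adjusted p = 0.0271). Against 393P the change was -0.26 (adjusted p = 0.688), and in 393LN against 393P it was 0.95 (adjusted p = 0.14). The second brightest of its 4 probe sets had changes in 344SQ of -0.93 against 393LN (adjusted p = 0.112) and -0.75 against 393P. In 393LN against 393P its change was 0.17 (adjusted p = 0.87), and there the arrays of the 2 lines overlapped. The call ended with the mean of all 4 probe sets (-0.73, adjusted p = 0.102) and without 344SQ replicate 2, 3 or 4 or 393LN replicate 1 or 2 (adjusted p = 0.0575 to 0.0802). The receptor gene Cx3cr1 was at 9.57, 9.06 and 9.19 in 344SQ, 393LN and 393P, and no comparison passed (0.51 against 393LN, adjusted p = 0.207).

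Cxcl14, which encodes a chemokine abundant in epithelia, fell in 344SQ against both lines by less than a doubling. It read 11.48, 10.74, 11.50 and 10.42 in 344SQ, 11.76, 11.65, 11.74 and 12.07 in 393LN and 11.99, 12, 11.56 and 11.84 in 393P. The 344SQ arrays lay below all others, the highest of them at 11.50 and the lowest 393P array at 11.56. The change was -0.81 against 393P (SE 0.23, 1.75-fold, adjusted p = 0.0398) and -0.77 against 393LN (1.70-fold, adjusted p = 0.0487). The other probe set had changes of -0.89 (adjusted p = 0.0377) and -0.74 (adjusted p = 0.0789). The call against 393P held without 344SQ replicate 1 or 3, 393LN replicate 4 or 393P replicate 3 and ended without any of the other 8 arrays (adjusted p up to 0.112). That against 393LN held without 344SQ replicate 1 or 3 and ended without any of the other 10 (up to 0.137).

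**Figure D4:**
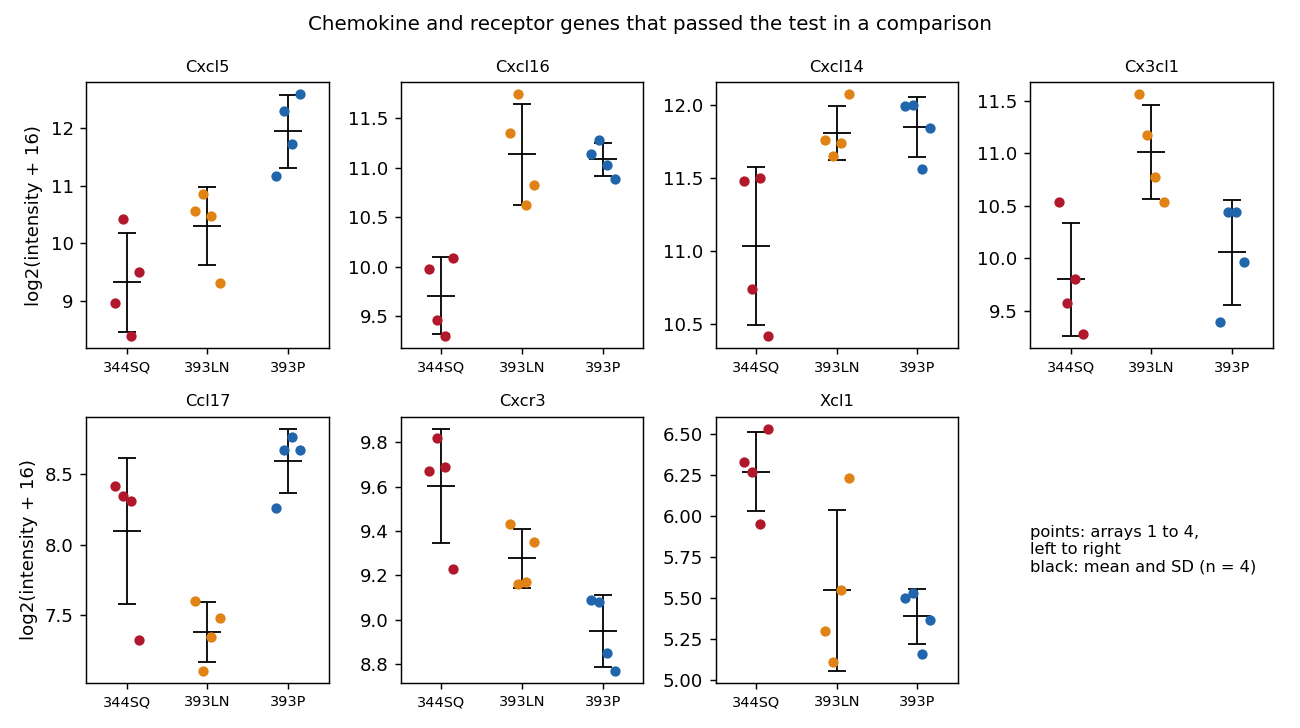
Level of the 7 members that passed in some comparison on each of the 12 arrays, as log2(intensity + 16) on the vertical axis with the 3 lines along the horizontal axis, coloured points for arrays and black marks for the line mean and SD (n = 4). The 4 344SQ arrays of Cxcl16 (9.30 to 10.09) sit below all 8 others, and the 4 393LN arrays of Ccl17 (7.11 to 7.60) sit below those of 393P (8.26 to 8.76).

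Xcl1, which encodes lymphotactin, a ligand made by activated T and NK cells, was dim, with a mean above that of 16.1% of genes. It read 6.33, 6.27, 5.95 and 6.53 in 344SQ, 5.30, 5.11, 5.55 and 6.23 in 393LN and 5.50, 5.53, 5.16 and 5.37 in 393P. The 344SQ arrays lay above those of 393P and overlapped 393LN through 1 array of that line. The change was 0.88 against 393P (SE 0.21, adjusted p = 0.0211) and 0.72 against 393LN (adjusted p = 0.0498). The call against 393P ended without 344SQ replicate 1, 2 or 4 or 393P replicate 3 or 4 (up to 0.0663). That against 393LN held without 344SQ replicate 3 or 393LN replicate 4 and ended without any of the other 10 arrays (up to 0.129).

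Cxcl12 and Cxcl13 differed little. Cxcl12, the stromal ligand that retains stem cells and leukocytes through Cxcr4, had line means of 10.94 for 344SQ, 10.87 for 393LN and 10.94 for 393P, with a change of -0.00 against 393P (95% interval -0.51 to 0.51, adjusted p = 0.999). Its receptor gene Cxcr4 was at 9.05, 9.32 and 9.12, with a change of -0.07 against 393P (-0.66 to 0.52). Cxcl13, which organises B cell follicles, was at 8.99, 9.12 and 9.07, and its receptor gene Cxcr5 at 6.17, 6.21 and 6.11. No comparison of these 4 genes passed.

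Ccl17 was the single member that passed in 393LN against 393P. The arrays of Cxcl5, Cx3cl1 and Cxcr3 did not overlap in that comparison either, without passing. Ccl17 encodes a ligand that dendritic cells make for T cells with Ccr4. It read 8.41, 8.34, 8.31 and 7.33 in 344SQ, 7.60, 7.11, 7.35 and 7.48 in 393LN and 8.26, 8.67, 8.76 and 8.67 in 393P. All 393LN arrays lay below all 393P arrays, and 344SQ replicate 4 lay among the 393LN values while the other 344SQ arrays did not. Ccl17 was 2.30-fold lower in 393LN than in 393P (log2 change -1.20, SE 0.22, adjusted p = 0.0187). The changes of 344SQ were 0.71 against 393LN (adjusted p = 0.0627) and -0.49 against 393P (adjusted p = 0.21). The call ended without 393LN replicate 2 or 3 or 393P replicate 2, 3 or 4 (adjusted p = 0.0512 to 0.0611, changes of -1.19 to -1.11). In the gene order of chromosome 8, Ccl22, Cx3cl1 and Ccl17 are neighbours with no other coding gene between. On the brightest probe set of each, their changes in 393LN against 393P were -0.07, 0.95 and -1.20, and the second brightest of Cx3cl1 had 0.17. Ccl22, the other ligand of Ccr4, was at 6.70, 6.74 and 6.81 in 344SQ, 393LN and 393P. Of 4 dendritic cell markers 0 passed in 393LN against 393P, and their mean ranged from 6.42 to 6.85 in 393LN and from 6.59 to 7.02 in 393P.

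None of the 5 monocyte and eosinophil ligand genes passed. Ccl2, the main monocyte attractant, was at 9.93 in 344SQ, 9.82 in 393LN and 9.98 in 393P and had a change of -0.05 against 393P (95% interval -0.31 to 0.20). The related Ccl7 was at 8.52, 8.46 and 8.46, Ccl8 at 11.27, 11.64 and 12.02 and the eosinophil ligand gene Ccl11 at 8.54, 8.28 and 8.26. Ccl24, which encodes a further eosinophil ligand, eotaxin-2, varied within lines. It read 9.40, 7.76, 7.84 and 7.97 in 344SQ, 11.07, 8.78, 7.69 and 8.10 in 393LN and 8.89, 11.85, 10.16 and 8.49 in 393P. The lines overlapped, and the change against 393P was -1.60 (95% interval -3.35 to 0.15, adjusted p = 0.26). Ccr2, the monocyte receptor for Ccl2, read 9.11, 8.79, 9.03 and 6.86 in 344SQ, 8.78, 9.03, 8.96 and 10.26 in 393LN and 10.07, 9.18, 9.06 and 9.30 in 393P. It was lowest on 344SQ replicate 4 and passed in no comparison (-0.95 against 393P, adjusted p = 0.257). Its probe sets differ here: the second brightest of 4 read 9.07, 9.03, 8.95 and 8.94 on the 344SQ arrays, with no low array, and had a change of 0.01 against 393P.

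Among the inflammatory ligands, Ccl4 separated 344SQ from 393P without passing the test. Ccl4, which encodes an attractant of monocytes and T cells, read 9.14, 9.40, 8.93 and 9.18 in 344SQ, 9.24, 9.60, 9.17 and 9.19 in 393LN and 9.66, 9.76, 9.49 and 9.45 in 393P. The 344SQ arrays lay just below those of 393P, the nearest at 9.40 and 9.45, with a change of -0.43 (adjusted p = 0.064). Its neighbour on chromosome 11, Ccl3, had means of 7.97, 8.03 and 8.91 and changes of -0.95 in 344SQ against 393P (adjusted p = 0.0962) and -0.88 in 393LN against 393P (adjusted p = 0.208). Ccl5, the T cell and NK cell product RANTES, was at 8.86, 9.02 and 8.97. Ccl6 and Ccl9, rodent ligands of Ccr1, were at 12.45, 11.87 and 12.63 and at 10.40, 10.00 and 10.11. None of the 5 passed in any comparison.

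Ccr1, the receptor of several of these ligands on monocytes and neutrophils, was tightly grouped in 344SQ on its brighter probe set. It read 9.46, 9.38, 9.43 and 9.39 there, 10.45, 9.50, 9.47 and 9.92 in 393LN and 9.40, 10.51, 10.27 and 10.15 in 393P. The 344SQ arrays lay just below all 393LN arrays and overlapped 393P through 1 array of that line, and neither change passed (-0.42, adjusted p = 0.313, and -0.67, adjusted p = 0.113). Without 393P replicate 1, which read 9.40, Ccr1 passed against 393P. The dimmer probe set of Ccr1 showed neither the tight grouping nor the separation from 393LN. It read 6.25, 6.47, 6.68 and 5.82 in 344SQ and 7.95, 5.86, 5.83 and 5.78 in 393LN. Its changes were -0.05 against 393LN and -0.53 against 393P, and neither passed. Macrophage and monocyte markers fell in part. Of 9 markers 3 fell in 344SQ against 393P, Aif1 by 1.26, Tyrobp by 0.92 and Cd14 by 0.75, and 2 against 393LN, Aif1 by 1.03 and Tyrobp by 0.59. The call of Cd14 was lost in 6 of 12 fits without 1 array and that of Tyrobp against 393LN in 9. Against each line 7 of the 9 changes were below 0 and 2 above, with medians of -0.75 against 393P and -0.57 against 393LN. Fcgr1 (-0.99), Csf1r (-0.84), Adgre1 (-0.67) and Cd68 (-0.20) were lower against 393P without passing. The 2 above 0 were the mannose receptor gene Mrc1 and the integrin gene Itgam. Mrc1 had changes of 0.68 against 393P (adjusted p = 0.105) and 0.48 against 393LN, and Itgam of 0.05 and 0.07. The list's mean ranged from 9.54 to 10.29 in 344SQ, 9.97 to 10.51 in 393LN and 10.19 to 10.81 in 393P, so that the lines overlapped. Their part in the values of the monocyte ligands and receptors was not tested.

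On their brightest probe sets, the mucosal ligand genes Ccl25 and Ccl28 separated 344SQ from 393P in opposite directions, and neither passed. Ccl25, which guides T cells to thymus and gut through Ccr9, read 7.33, 7.53, 7.25 and 7.47 in 344SQ, 7.88, 7.52, 7.61 and 7.44 in 393LN and 8.20, 7.64, 7.76 and 7.85 in 393P. The 344SQ arrays lay below 393P and overlapped 393LN (change -0.47 against 393P, adjusted p = 0.0514). Another probe set of Ccl25 fell in 344SQ against 393LN (-0.70, adjusted p = 0.0463), a call that held in 1 of 12 fits without 1 array. Ccl28, made by mucosal epithelia for Ccr10, read 8.76, 8.80, 8.63 and 8.83 in 344SQ, 8.43, 8.63, 8.33 and 8.50 in 393LN and 8.40, 8.56, 8.46 and 8.62 in 393P. The 344SQ arrays lay above those of 393P, the nearest at 8.63 and 8.62 (change 0.25, adjusted p = 0.146), and touched 393LN at 8.63 (change 0.29, adjusted p = 0.0876). The dimmer probe sets of Ccl28 had changes of -0.31 and 0.10 against 393P, so its direction depended on the probe set. Over the alternative settings the change of Ccl28 against 393P was as low as 0.01. Ccl20, the ligand of Ccr6, was near the floor at 5.10, 4.90 and 5.12. Ccr6 was at 7.97, 7.82 and 7.98, and Ccr7, which guides dendritic cells and T cells to lymph nodes, at 6.10, 6.50 and 6.47. None of these 3 passed.

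Other genes of the chemokine system gave few calls. Of 13 other chemokine and receptor genes measured, Ppbp was the 1 that fell in 344SQ against 393P. Against 393LN the T cell product gene Ccl1 fell by 0.68 (adjusted p = 0.0161). Of 5 atypical receptor genes, whose products take up ligands without signalling through G proteins, none passed against 393P and Ackr1 rose against 393LN by 0.44 (adjusted p = 0.0407, lost in 7 of 12 fits without 1 array). Of 21 measured genes of receptor signalling, Grk6 and Rgs1 fell against both lines and none rose. Grk6 encodes a kinase that desensitises activated receptors and fell by 0.65 against 393P (adjusted p = 0.00419) and 0.55 against 393LN (adjusted p = 0.012). Rgs1 encodes a brake on G protein signalling in leukocytes and fell by 0.70 (adjusted p = 0.0254, lost without any of 5 arrays) and 0.86 (adjusted p = 0.00948). The median change against 393P was 0.06 for the atypical receptors and 0.01 for receptor signalling, beside -0.00 over all genes.

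Genes that process chemokines or display them on heparan sulfate also moved in part. Of 10 measured, Ext1, a heparan sulfate polymerase gene, fell by 0.90 against 393P (adjusted p = 0.00523) and 0.74 against 393LN (adjusted p = 0.0163, 0.0521 without 344SQ replicate 2). Mmp14, which encodes a membrane metalloprotease, rose against 393LN by 0.51 (adjusted p = 0.0176), a call that ended with the mean of all its probe sets. In the NF-kB and inflammatory list, the adhesion gene Icam1 rose against 393LN by 1.15 (adjusted p = 0.0415) and the kinase gene Ikbkb fell by 0.73 (adjusted p = 0.0436), and each call was lost in 9 of 12 fits without 1 array. The calls of Csf2 and Nfkbiz against 393P were lost in 6 and 8 of 12 such fits, while that of Il1b held in all 12. The call of Nfkbiz also ended with the mean of all its probe sets (-0.46, adjusted p = 0.201). Quantile normalization (0.0516) and a pseudocount of 1 (0.06) ended it too. In 393LN against 393P 0 genes of these 6 lists passed the limma test.

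Markers of other cells were as follows. Of 6 NK cell markers measured 0 passed in any comparison, and the list's mean ranged from 6.94 to 8.12 in 344SQ, 7.78 to 8.87 in 393LN and 7.35 to 8.65 in 393P. In 344SQ against 393LN the list's median change was -0.66, with 2 changes above 0 and 4 below. Gzma came near the threshold there (-2.56, adjusted p = 0.0504), and its 344SQ arrays (6.16 to 7.17) lay below all 393LN arrays (8.23 to 10.46). Itgax, a dendritic cell and macrophage marker, fell in 344SQ against both lines, and Siglecf, 1 of 3 eosinophil markers, fell against 393P. In each of the 2 comparisons of Itgax, 2 of the 4 dendritic cell markers had changes above 0 and 2 below. Those above were Zbtb46 (0.26 against each line) and Cd209a (0.17 against 393P and 0.01 against 393LN). Siglecf was dim (means of 5.36 in 344SQ and 6.66 in 393P), and Prg2 and Epx had changes of -0.15 and 0.04 against 393P. The call of Siglecf was lost in 10 of 12 fits without 1 array, and that of Itgax in 7 against 393LN and 2 against 393P. None of the 6 fibroblast and 4 endothelial markers passed, although the fibroblast mean of 344SQ (11.84 to 12.15) lay above that of 393LN (11.34 to 11.83) and 393P (11.04 to 11.77). The mean of 5 carcinoma epithelial markers was 12.70 to 13.06 in 344SQ, 13.46 to 13.67 in 393LN and 13.46 to 13.79 in 393P, with Epcam the 1 marker that passed. Krt8, Krt18, Krt19 and Cdh1 had changes of only -0.00, -0.06, -0.20 and 0.12 in 344SQ against 393P. Against 393LN they had 0.17, 0.03, -0.06 and 0.18, so the lower mean of 344SQ came from Epcam. The part of the cell make-up of the tumours in the chemokine values was not tested.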

How the data were processed

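Probe set intensities were used as deposited by the authors, on a linear scale. RNA isolation used an Ambion kit, quality was read by NanoDrop and Bioanalyzer, and cRNA carried biotin, per the labels' protocols. The programs that summarised and normalized the intensities are not given in the sources used here. The arrays have no read depth, and their number limits the precision. Of 45101 probe sets, 34945 have 1 gene symbol in the platform annotation, 932 several, 9160 none and 64 are controls. No other value columns were present (0).

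Values were taken as log2(intensity + 16) with no filter and no further scaling. For 18193 genes, line means were estimated from all 12 arrays with limma 3.58.1 in R 4.3.3 (lmFit and eBayes, 9 residual degrees of freedom). P-values are two-sided and adjusted by Benjamini-Hochberg over all genes, and a gene passed at an adjusted p under 0.05. Other probe sets come from a separate fit adjusted over 34945 probe sets. The scripts were tested on simulated data.

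Members that passed in any comparison, or whose values in 2 lines did not overlap with a group mean outside the lowest 40% of group means (above 7.71), are given on every array. Members with a wide spread are also given on every array, chosen after their values were seen. Related lists give the genes that passed. The members, the lists and the rule were chosen with earlier results of these data known.

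Alternatives were quantile normalization, median centring of arrays, pseudocounts of 1 or 64, filters that removed the dimmest 25% or 50% of genes, the mean of all probe sets of a gene, only the arrays of the compared lines, a trended and robust prior, and leaving out each array. Leaving out 344SQ replicate 4 and 393P replicate 1 together was added after the data were seen. Promoters are RefSeq's.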

Additional observations from a re-analysis of the deposited data

Results flagged for a closer look

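In these groups of 4 arrays, 1 array stood far from the other 3, by Dixon's test at the 95% level, which chance alone gives in about 1 of 20 groups. Among the 38 members in 3 lines this was so in 10 of 114 groups (8.77%), and with their other probe sets and the other genes named in 19 of 213 (8.92%).

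On 393P replicate 1, the array with the highest 3' to 5' actin ratio, Cxcl9 was at 9.38 (others 10.87 to 11.07), Cxcl10 at 9.64 (10.57 to 10.72), Cx3cr1 at 8.58 (9.32 to 9.45), the second brightest Cx3cl1 probe set at 8.60 (9.95 to 10.08) and Epcam at 13.22 (13.51 to 13.56). The dimmest and the second brightest Cxcl1 probe sets were high there, at 11.23 (10.89 to 10.93) and 11.41 (10.82 to 10.91). The part of RNA quality in these values was not tested. Ext1 was at 11.78 on 393P replicate 2 (11.44 to 11.46).

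On 344SQ replicate 1, Ccl24 was at 9.40 (7.76 to 7.97), Cxcr6 at 8.38 (7.43 to 7.53) and Ifng at 6.63 (5.07 to 5.24), all high, and Ppbp at 7.36 (9.32 to 9.51) and Epcam at 8.30 (9.95 to 10.27), both low. On 344SQ replicate 4, Ccl17 was at 7.33 (8.31 to 8.41) and Ccr2 at 6.86 (8.79 to 9.11), where its second brightest probe set read 8.94 (8.95 to 9.07).

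In 393LN, Ccl4 was at 9.60 on replicate 2 (9.17 to 9.24) and Siglecf at 7.09 on replicate 1 (5.70 to 5.93). On replicate 4, Ccl20 was at the floor of 4.09 (5.09 to 5.24) and Ccr2 at 10.26 (8.78 to 9.03).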

How the results depend on the processing

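The alternative runs followed 53 named results. These were genes that passed, members whose lines did not overlap as set out above, and other probe sets of members that passed. None of these changed direction (0 of 1115 values). Direction was not followed for the other genes given, among them Cxcl2, Cxcl9, Cxcl10, Cxcl11, Ccl24 and Ccr2. Among members, the calls of Cxcl5 and Cxcr3 against 393P and of Cxcl16 against both lines held under every alternative. The number of members that passed in 344SQ against 393LN was 4, and 2 with quantile normalization, a pseudocount of 1, the mean of all probe sets or only the arrays of the compared lines. Without 1 array it was 1 to 3, with 1 without 344SQ replicate 2 or 393LN replicate 1 or 2. In 344SQ against 393P it was 5, and 3 to 5 without 1 array, with 3 without 344SQ replicate 4 or 393P replicate 4. In 393LN against 393P it was 1, and 0 to 1 without 1 array. Over all genes, the number that passed was 1984 in 344SQ against 393LN (1167 to 2481 without 1 array, the lowest without 344SQ replicate 2), 1907 in 344SQ against 393P (1259 to 1932, the lowest without 393P replicate 3) and 446 in 393LN against 393P (156 to 438, the lowest without 393P replicate 3, and 174 with only the arrays of the compared lines). The cause of these differences was not tested beyond the smaller number of arrays.

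The call of Xcl1 against 393LN was lost in all 7 other settings that could test it, and those of Cxcl14 with a pseudocount of 1 and with only the arrays of the compared lines. Some members passed under other settings. Ccl4 and Ccl25 passed in 344SQ against 393P with a pseudocount of 64 (adjusted p = 0.0479 and 0.0465) and without the dimmest 25% of genes (0.0459 and 0.0362), and Cxcl5 in 393LN against 393P without the dimmest 50% (0.0462). Cxcl1 passed in 344SQ against 393P with the mean of all probe sets, and Ccr1 without 393P replicate 1. Ccl17 passed in 344SQ against 393LN without the dimmest 25%, with the trended prior and without 344SQ replicate 4, and Cxcr3 in that comparison without 344SQ replicate 4. Signal near the floor limits Ccl20, Xcl1, Cxcr2, Cxcr5 and Ccr7. No paired analysis was possible because the labels give the arrays no replicate numbers that the lines share.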
